A study of Mus musculus with 9 samples.

Results

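The aryl hydrocarbon receptor genes examined here were 8 genes chosen by symbol for their known roles, out of 20325 in the tables: Ahr, Arnt, Ahrr, Tiparp, Cyp1a1, Cyp1a2, Cyp1b1 and Aldh3a1. They were measured by RNA sequencing of whole livers of male C57BL/6J mice, all bred germ-free and all fed chow, with 3 livers in each of 3 groups. ConvD mice were germ-free animals given a single oral gavage of cecal contents from conventionally raised donors of 15 weeks of age, and then kept for 4 weeks. GF+SCFA mice remained germ-free, and their drinking water held short-chain fatty acids: acetate at 67.5 mM, propionate at 25.9 mM, butyrate at 40 mM. GF mice remained germ-free on plain water. The labels give 2 ages, 14 weeks in the design text, and gavage at 15 weeks with dissection at 19 weeks in the growth protocol. Animals of the same colonization status were caged together, so an effect of the cage and an effect of the group cannot be told apart. The labels call the livers of a group biological replicates but name no animals, so each p-value measures the spread between these samples.

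AHR is a transcription factor that waits in the cytosol on a chaperone complex until a small molecule binds it. Planar pollutants, tryptophan breakdown products and indoles made by gut microbes are known ligands. The bound receptor enters the nucleus, pairs with ARNT and binds DNA at xenobiotic response elements, whose core is GCGTG. Cytochrome P450 genes of the Cyp1 family are its classic targets, and Ahrr and Tiparp are induced targets whose proteins in turn restrain the receptor.

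The promoters of 3 of the genes are shown because they differ in this core and because Cyp1a1 and Cyp1a2 are neighbours that face away from each other on chromosome 9. Each line gives the 250 bases before 1 annotated start, 5′ to 3′ on the gene's strand, from the RefSeq table of build GRCm38.p6, with each core in capitals (GCGTG, or CACGC where the core lies on the other strand).
Cyp1a1, chr9:57697363-57697612, plus strand: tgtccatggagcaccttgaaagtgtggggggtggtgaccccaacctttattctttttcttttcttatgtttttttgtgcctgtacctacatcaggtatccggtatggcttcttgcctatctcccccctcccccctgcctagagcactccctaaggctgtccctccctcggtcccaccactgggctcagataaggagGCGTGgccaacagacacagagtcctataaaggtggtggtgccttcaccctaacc
Cyp1a2, chr9:57683656-57683905, minus strand: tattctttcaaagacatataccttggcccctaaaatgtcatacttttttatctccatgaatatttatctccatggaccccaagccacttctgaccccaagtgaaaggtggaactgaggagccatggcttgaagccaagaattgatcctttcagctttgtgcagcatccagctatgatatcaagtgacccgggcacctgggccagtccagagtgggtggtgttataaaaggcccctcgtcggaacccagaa
Ahrr, chr13:74292332-74292581, minus strand: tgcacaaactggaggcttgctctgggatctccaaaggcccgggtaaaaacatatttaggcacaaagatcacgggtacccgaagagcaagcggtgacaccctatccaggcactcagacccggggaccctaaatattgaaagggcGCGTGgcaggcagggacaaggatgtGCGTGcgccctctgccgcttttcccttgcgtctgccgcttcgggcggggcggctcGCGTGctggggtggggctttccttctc
The Cyp1a1 window held 1 core, whose first base lay at -54 from the start. The Cyp1a2 window held 0 cores, and the Ahrr window held 3, at -107, -82 and -27. Of the other windows, Arnt held 1 core at -29, Cyp1b1 held 1 on the opposite strand at -76, and Tiparp held 1 on the opposite strand at -170. In all, 5 of the 6 windows that could be matched held a core, and so did 28.2% of the 32841 mouse windows of the same length. The longer motif TNGCGTG was found on either strand in 4.10% of all windows, and among the 6 in that of Ahrr alone, with 1 match that contains one of the cores counted above. Ahr and Aldh3a1 had no window in the table. For Cyp1a1 and Arnt the start used is not the outermost end of the RefSeq gene. The share over all windows was not matched for GC content, which ran from 47.2% for Cyp1a2 to 75.2% for Tiparp. A match describes the letters of the window and is not evidence of binding. A window with 0 cores does not show that the gene lacks response elements, since bases further from the start were not searched.

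Total depth was 18193071 to 21627696 expected counts per library. Expected counts are the read numbers that RSEM, the quantification program, assigns to a gene after dividing reads that match several. Hepatocyte markers were abundant in every liver, with a summed level of 123740 to 150902 CPM, the count scaled to a common library total, in ConvD livers, 121578 to 142052 CPM in GF+SCFA livers and 129506 to 148148 CPM in GF livers over 10 genes. In the fit over all genes, 1544 of 12037 genes passed an adjusted p of 0.05 between ConvD and GF livers (12.8%), 5 between GF+SCFA and GF livers (0.0415%) and 2216 between ConvD and GF+SCFA livers (18.4%).

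The level per transcript length, in TPM (transcript share scaled by length and depth), set the 8 genes far apart and in nearly the same order in every liver. Cyp1a2 had 638 to 815 TPM in ConvD livers, 764 to 798 TPM in GF+SCFA livers and 740 to 826 TPM in GF livers, and ranked 129 to 160 among the 20325 genes. Ahr and Arnt came next, with 9.54 to 19.8 TPM and 10.3 to 16.9 TPM over the 9 livers, and these 2 ranges overlapped. Tiparp followed at 1.56 to 3.21 TPM and Cyp1a1 at 0.560 to 1.08 TPM, with no overlap between them. Cyp1b1, at 0.0300 to 0.230 TPM, lay below Cyp1a1 in every liver and overlapped with Ahrr, at 0.0200 to 0.0700 TPM. Aldh3a1 was at 0 in 7 of 9 livers. The Cyp1a2 level was 684 to 831 times that of Cyp1a1 in ConvD livers, 888 to 1381 times in GF+SCFA livers and 778 to 1095 times in GF livers.

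**Figure D1:**
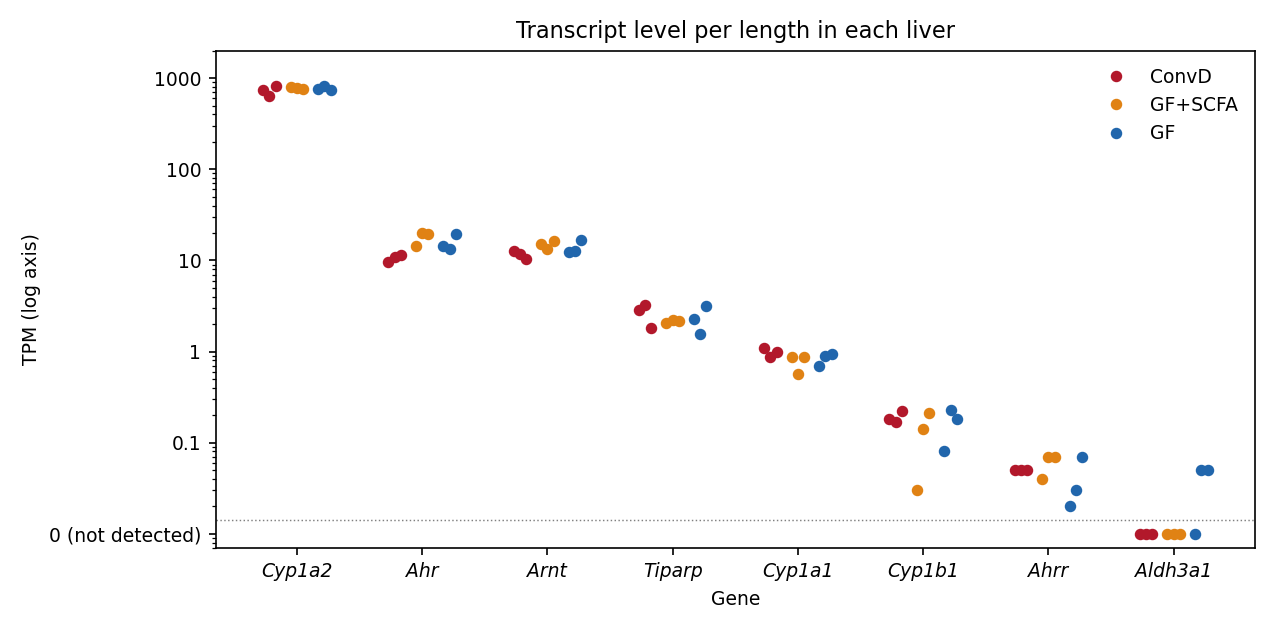
Level of each gene in each liver in TPM on a log axis, with genes ordered by level and each point 1 liver (ConvD, GF+SCFA and GF from left to right). Points below the dotted line are livers with 0 TPM. Cyp1a2 stood at 638 TPM or more in every liver, while Ahrr and Aldh3a1 did not exceed 0.0700 TPM in any.

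Setting ConvD beside GF livers asks what receiving a gut microbiota changed in the liver. Transcripts of the receptor and of its partner were lower in ConvD livers, and none of the 4 target genes tested among the 8 passed. Of the 8 genes, 6 had enough counts to be tested, and 2 of these (Ahr and Arnt) were lower and 0 higher, where 6.9% of all tested genes were lower and 5.93% higher. By DESeq2 the counts were likewise 2 lower and 0 higher, beside 906 lower and 619 higher among the 11898 genes that it adjusted. Before adjustment, edgeR gave 2 of the 6 genes a p under 0.05, with 2 lower and 0 higher. That looser cut was passed by 3437 of all 12037 tested genes, counting both directions. In 7 of 10 other alternatives 1 gene was lower, and without ConvD replicate 2 the count was 0. The median log2 fold change of the 6 genes was -0.01, beside 0.00 over all tested genes. In bulk tissue, fewer cells of a type and less RNA per cell cannot be told apart.

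Ahr, the receptor itself, was measured at 31.0, 37.4 and 40.6 CPM in ConvD livers, at 53.9, 70.3 and 71.2 CPM in GF+SCFA livers and at 52.3, 50.7 and 66.0 CPM in GF livers. Each ConvD liver lay below every liver of the other groups, and the GF+SCFA and GF livers overlapped. The ConvD mean of 36.3 ± 4.88 CPM was 0.644 times the GF mean of 56.3 ± 8.39 CPM (SD, n = 3 each). The log2 fold change was -0.63 (SE 0.14, 95% interval -0.95 to -0.32), with an adjusted p of 0.0181 by edgeR's quasi-likelihood test with Benjamini-Hochberg adjustment over all genes, as for every adjusted p below. Without ConvD replicate 2 the adjusted p was 0.0577, while the fold change stayed at -0.65.

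Arnt, which forms the DNA-binding pair with AHR and also with the hypoxia factors, was at 32.8, 32.2 and 29.2 CPM in ConvD livers, at 43.9, 37.6 and 47.1 CPM in GF+SCFA livers and at 35.7, 37.8 and 44.8 CPM in GF livers. All 3 ConvD values were again the lowest of the 9. The log2 fold change of ConvD over GF livers was -0.33 (SE 0.10, 95% interval -0.55 to -0.11, adjusted p 0.0462 by edgeR). This value lay close to the threshold. The call was lost in 6 of the 9 fits that each left out 1 liver, with the highest adjusted p, 0.159, without GF replicate 3, and in 7 of 10 other alternatives. Ahr and Arnt were the 2 of the 8 genes whose ConvD and GF livers did not overlap, a pattern shown by 31.6% of all tested genes.

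**Figure D2:**
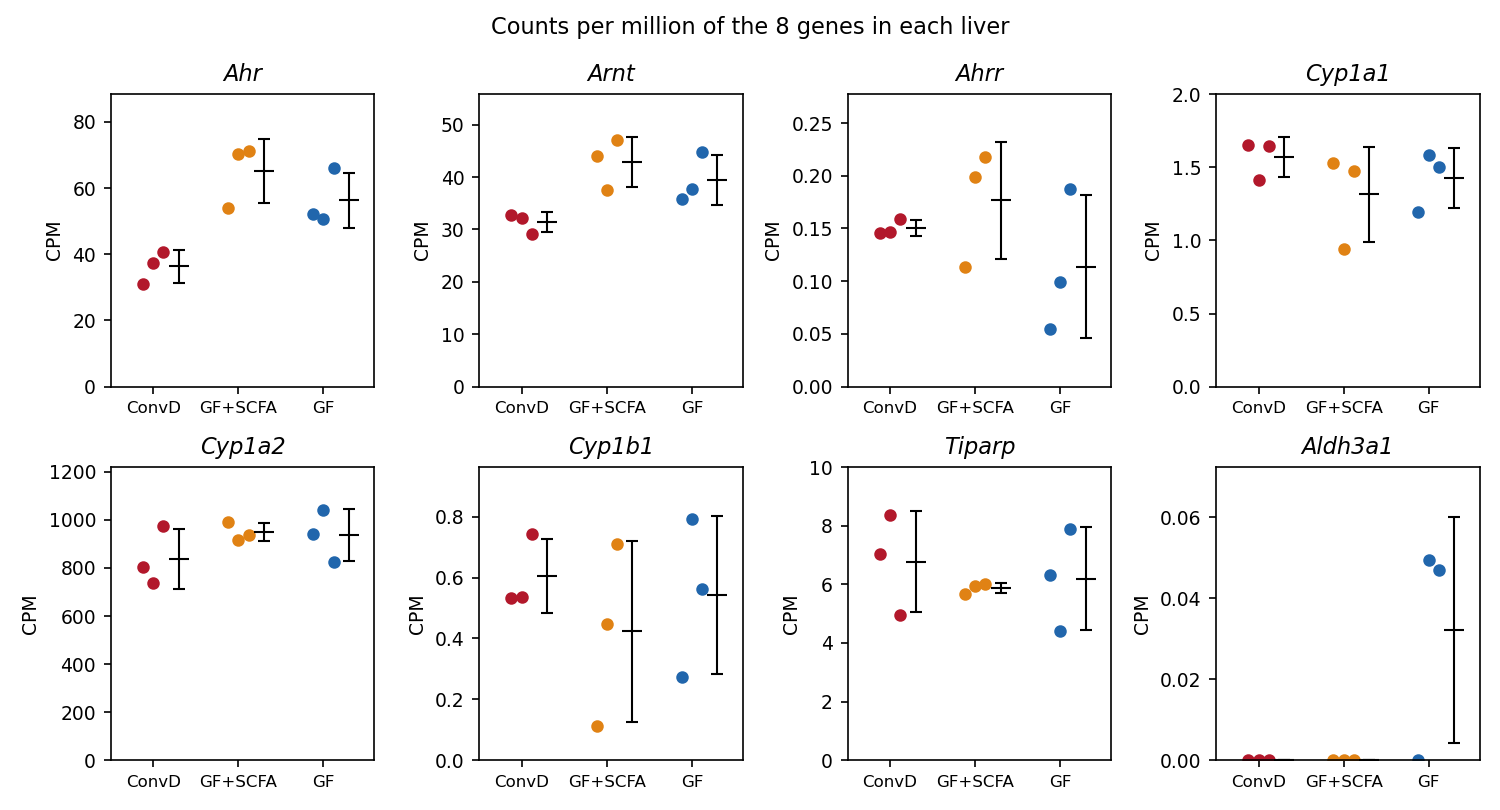
CPM of each gene in each liver, on a linear axis from 0 for each gene. Points are livers, and the bar beside them is the mean ± SD of 3 livers (ConvD, GF+SCFA and GF from left to right). For Ahr and Arnt the 3 ConvD livers lie below all 6 others. In the other genes the groups overlap.

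Ahrr, the repressor that competes with AHR for ARNT, had 3.00, 2.96 and 3.00 expected counts in ConvD livers, 2, 4 and 4 in GF+SCFA livers and 1, 2 and 4 in GF livers. These values sat at about the 3 counts that a count of 0 allows in a library. The gene was dropped by the filter on low counts, and no difference between groups was detectable at this depth. Tiparp encodes an ADP-ribosyltransferase that marks AHR for loss. It was at 7.04, 8.35 and 4.94 CPM in ConvD livers, at 5.67, 5.96 and 6.00 CPM in GF+SCFA livers and at 6.30, 4.40 and 7.89 CPM in GF livers. The 3 groups overlapped, with ConvD and GF livers more widely spread than GF+SCFA livers. Its log2 fold change of ConvD over GF livers was 0.13 (95% interval -0.33 to 0.59, adjusted p 0.738 by edgeR).

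Cyp1a1 encodes the most inducible of the P450 enzymes under AHR and is the usual reporter of its activity. It was at 1.65, 1.42 and 1.65 CPM in ConvD livers, at 1.53, 0.943 and 1.47 CPM in GF+SCFA livers and at 1.195, 1.58 and 1.502 CPM in GF livers. The groups overlapped, and the lowest value was that of GF+SCFA replicate 2. The log2 fold change of ConvD over GF livers was 0.13, and its 95% interval of -0.38 to 0.64 includes both no change and a rise of 0.64 on the log2 scale (adjusted p 0.763 by edgeR). The level itself is uncertain. Transcripts of Cyp1a1 and Cyp1a2 share an identical run of 137 bases in the GENCODE annotation, against 13 bases for either with Cyp1b1. Reads of the far more abundant Cyp1a2 may thus have been divided between them. No Cyp1a1 count was a whole number in any library, but neither was any Arnt count, so this trait is not specific to such sharing.

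Cyp1a2 encodes a P450 that clears caffeine, depends on AHR for its basal level in mouse liver and is most expressed near the central vein. It was at 803, 737 and 977 CPM in ConvD livers, at 989, 917 and 939 CPM in GF+SCFA livers and at 941, 1043 and 827 CPM in GF livers. ConvD replicates 1 and 2 were the lowest of the 9, and ConvD replicate 3 lay among the others. The log2 fold change of ConvD over GF livers was -0.16 (95% interval -0.39 to 0.07, adjusted p 0.357 by edgeR). Beside it, the 16 pericentral genes had a summed level of 9559 to 11385 CPM in ConvD livers, 12241 to 13515 CPM in GF+SCFA livers and 12405 to 13876 CPM in GF livers, without overlap of ConvD with the others. Most of this sum was Cyp2e1. Of these 16, 3 were lower in ConvD than in GF livers and 2 were higher, where 6.9% of all tested genes were lower and 5.93% higher. The median log2 fold change of the 16 was 0.00. The 12 periportal genes also had a lower sum in ConvD livers, at 8899 to 10501 CPM, against 12948 to 14486 CPM in GF+SCFA livers and 13496 to 15427 CPM in GF livers. Of these 12, 2 were lower and 1 higher in ConvD than in GF livers, with a median log2 fold change of -0.11. Cyp2e1, an ethanol-oxidising P450, was at 6997, 7002 and 8108 CPM in ConvD livers and at 9273, 10581 and 9427 CPM in GF livers (log2 fold change -0.41, adjusted p 0.0164 by edgeR). Its call was lost without some single livers, with an adjusted p of up to 0.0704 without ConvD replicate 2. The part of either zone in the Cyp1a2 values was not tested.

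Cyp1b1, a P450 of oestrogen metabolism that is found mostly outside hepatocytes, was at 0.534, 0.537 and 0.744 CPM in ConvD livers, at 0.113, 0.447 and 0.709 CPM in GF+SCFA livers and at 0.272, 0.792 and 0.563 CPM in GF livers. These values come from 2 to 16 expected counts per library, and the groups overlapped. The log2 fold change of ConvD over GF livers was 0.13, with a 95% interval from -0.88 to 1.14 (adjusted p 0.890 by edgeR). Stellate and fibroblast markers, genes of cells in which Cyp1b1 is known to be active, summed to 423 to 441 CPM in ConvD livers, 357 to 399 CPM in GF+SCFA livers and 406 to 442 CPM in GF livers over 15 genes. Of these 15, 0 were called between ConvD and GF livers, and 1 was lower in GF+SCFA than in GF livers. Against GF+SCFA livers, 6 were higher and 0 lower in ConvD livers, where 9.44% of all tested genes were higher and 8.97% lower. The part of these cells in the Cyp1b1 values was not tested. Aldh3a1 encodes an aldehyde dehydrogenase that AHR ligands induce in liver. It had 0 counts in all ConvD and GF+SCFA livers and 1 count in each of GF replicates 2 and 3, all below the 3 counts that a count of 0 allows, so no comparison was possible.

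**Figure D3:**
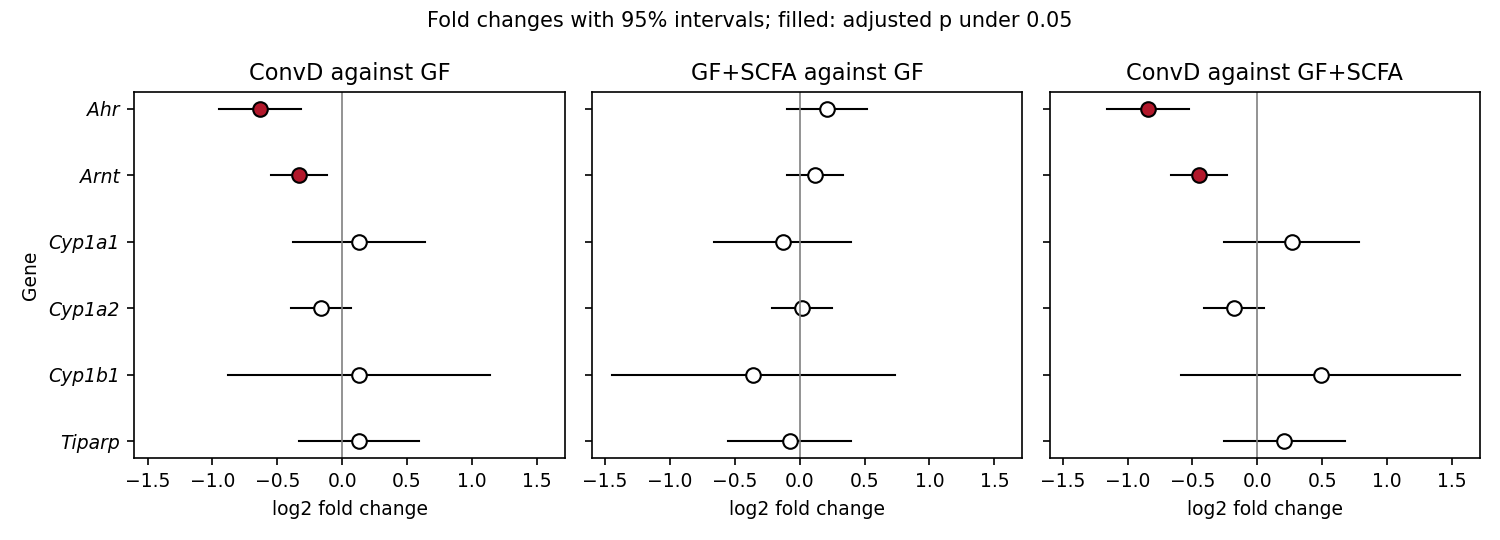
Log2 fold change of the 6 tested genes in each comparison, with 95% intervals. Filled points have an adjusted p under 0.05. Ahr and Arnt lie below 0 with ConvD as the first group, and the intervals of the other genes include 0 in all 3 comparisons.

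Setting GF+SCFA beside GF livers asks what fermentation acids changed in the absence of microbes. No gene of the 8 passed the test, where 0.0415% of all genes did, 0.00831% higher and 0.0332% lower. That background is unstable, with 5 genes called as reported, 82 by DESeq2 and 173 without GF replicate 3. By edgeR, DESeq2 and limma the counts were 0 higher and 0 lower. An unadjusted p under 0.05 by edgeR was found for 0 of the 6 tested genes and for 1477 of all 12037. Ahr averaged 65.1 ± 9.72 CPM in GF+SCFA livers and 56.3 ± 8.39 CPM in GF livers (SD, n = 3 each), with a log2 fold change of 0.21 (95% interval -0.10 to 0.52, adjusted p 0.584 by edgeR). For Arnt it was 0.12 (interval -0.10 to 0.33), for Cyp1a2 0.02 (interval -0.21 to 0.25) and for Tiparp -0.08 (interval -0.55 to 0.39). The intervals were wider for Cyp1a1, at -0.66 to 0.40 around -0.13, and for Cyp1b1, at -1.45 to 0.73 around -0.36. Changes within these intervals could not have been told from none. In 0 of the 6 tested genes did the GF+SCFA and GF livers not overlap, where 17.9% of all tested genes showed that pattern.

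The comparison of ConvD with GF+SCFA livers sets a whole microbiota beside its main fermentation acids. It shares the ConvD livers with the first comparison, so the results are not independent. Again 2 genes were lower and 0 higher, where 8.97% of all tested genes were lower and 9.44% higher. The counts were the same by DESeq2, beside 1079 lower and 964 higher of 12200 genes with an adjusted p. They were also the same at an unadjusted p under 0.05, where 3981 of all 12037 tested genes passed in either direction. Ahr averaged 36.3 ± 4.88 CPM in ConvD livers and 65.1 ± 9.72 CPM in GF+SCFA livers (log2 fold change -0.84, SE 0.14, 95% interval -1.16 to -0.53, adjusted p 0.00322 by edgeR, n = 3 each), a call kept in all 9 fits that left out 1 liver. Arnt averaged 31.4 ± 1.92 CPM in ConvD livers and 42.9 ± 4.85 CPM in GF+SCFA livers (log2 fold change -0.45, SE 0.10, interval -0.67 to -0.23, adjusted p 0.00805 by edgeR), also kept in all 9 but lost in 2 limma fits on log2 TPM (adjusted p 0.0848 and 0.0822). These were the 2 genes whose livers did not overlap, where 38% of all tested genes showed that pattern. The targets gave log2 fold changes of 0.26 for Cyp1a1 (interval -0.26 to 0.79), -0.18 for Cyp1a2 (interval -0.41 to 0.05), 0.49 for Cyp1b1 (interval -0.59 to 1.56) and 0.21 for Tiparp (interval -0.26 to 0.68). None of these passed the test.

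Chaperones hold AHR in a ligand-binding state, and other partners compete for ARNT. Of 8 such genes, 6 were tested between ConvD and GF livers, of which 1 was lower and 0 higher (here and for the lists that follow, beside 6.9% lower and 5.93% higher of all tested genes), with a median log2 fold change of -0.35 and all 6 values below 0. Epas1, a hypoxia factor that pairs with ARNT, was at 196, 163 and 146 CPM in ConvD livers, at 221, 204 and 214 CPM in GF+SCFA livers and at 219, 259 and 238 CPM in GF livers. All ConvD livers lay below the others (ConvD over GF log2 fold change -0.50, adjusted p 0.00589 by edgeR), and the call was kept in all 9 fits without 1 liver. The chaperones gave values of -0.57 for Hsp90aa1 (adjusted p 0.127), -0.43 for Hsp90ab1 (adjusted p 0.0691) and -0.27 for Ptges3, the co-chaperone p23 (adjusted p 0.0515), none of which passed in the edgeR test. DESeq2 called 4 of the 6 lower, beside 906 lower of the 11898 genes to which it gave an adjusted p.

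Coregulators join AHR and ARNT on DNA to open or close chromatin. All 13 were tested, of which 4 were lower in ConvD than in GF livers and 0 higher, with a median log2 fold change of -0.21. Among them were the histone acetyltransferases Crebbp (-0.52, adjusted p 0.00952 by edgeR) and Ep300 (-0.36, adjusted p 0.0139) and the corepressor Ncor1 (-0.24, adjusted p 0.0334). Crebbp kept its call in all 9 fits without 1 liver, Ep300 lost it in 2 of them (adjusted p up to 0.0617) and Ncor1 in 4 (adjusted p up to 0.123). The number called lower was 2 to 5 over these fits, lowest without GF replicate 1 and without ConvD replicate 2, and 1 to 4 over the other alternatives. Against GF+SCFA livers, 1 of the 13 was lower and 0 higher in ConvD livers, where 8.97% of all tested genes were lower and 9.44% higher.

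Further reported AHR targets were not uniform. Of 26, 23 were tested between ConvD and GF livers, of which 4 were higher and 1 lower, with a median log2 fold change of 0.18. Ugdh, which makes the sugar donor for glucuronidation, was at 197, 203 and 226 CPM in ConvD livers, at 127, 138 and 118 CPM in GF+SCFA livers and at 125, 141 and 120 CPM in GF livers (ConvD over GF 0.69, adjusted p 0.000257 by edgeR). Every ConvD liver exceeded every other. Gsta1, a glutathione transferase, was at 8.74, 7.37 and 10.2 CPM in ConvD livers, at 1.98, 3.23 and 0.763 CPM in GF+SCFA livers and at 1.63, 1.39 and 1.50 CPM in GF livers (2.53, adjusted p 0.00194). Its reads can be divided with near-identical family members, so the value of this gene alone is uncertain. Htatip2, an oxidoreductase, rose by 0.73 (adjusted p 0.00149), and Slc46a3, a lysosomal transporter, fell by 0.50 on the log2 scale (adjusted p 0.00448). These 4 kept their call in all 9 fits without 1 liver. The other called gene, Tnfaip2 (0.42, adjusted p 0.0375), lost it in 4 of them, with an adjusted p of up to 0.127 without ConvD replicate 2. The number called higher was 3 to 7, the highest without GF replicate 3.

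Other textbook members of the AHR battery did not pass the test between ConvD and GF livers. Nqo1, a quinone reductase, was at 7.62, 4.93 and 6.80 CPM in ConvD livers, at 4.99, 6.65 and 6.60 CPM in GF+SCFA livers and at 4.62, 5.25 and 6.57 CPM in GF livers, all overlapping (ConvD over GF 0.23, 95% interval -0.16 to 0.62, adjusted p 0.440). The glucuronosyltransferase Ugt1a6a gave 0.12 (interval -0.09 to 0.34) and Nfe2l2, the antioxidant regulator, 0.19 (interval -0.04 to 0.42). Against GF+SCFA livers Nfe2l2 was called higher in ConvD livers (0.41, adjusted p 0.0175 by edgeR), a call lost in 3 of the 9 fits without 1 liver, with an adjusted p of up to 0.0761 without GF+SCFA replicate 3. Against GF+SCFA livers, 4 of the 23 were higher and 1 lower in ConvD livers, where 9.44% of all tested genes were higher and 8.97% lower. Between GF+SCFA and GF livers, 0 of the 23 passed in edgeR and DESeq2. By edgeR 3 of them had an unadjusted p under 0.05, as did 1477 of all 12037 tested genes. Several genes of this list are known to answer to other transcription factors as well.

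**Figure D4:**
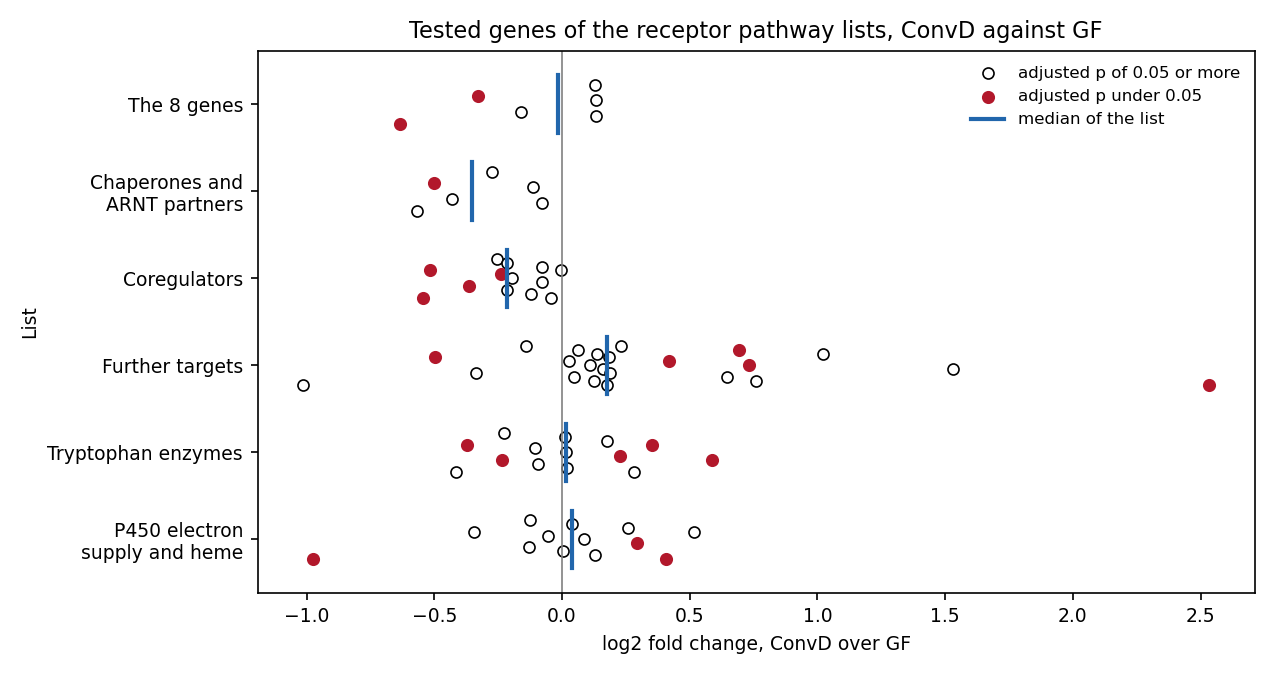
Log2 fold change of ConvD over GF livers for every tested gene of the 8 and of 5 lists, each point 1 gene. Filled points have an adjusted p under 0.05, and the vertical bar is the median of the list. The medians run from -0.35 for chaperones and partners of ARNT to 0.18 for further targets.

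Tryptophan enzymes form kynurenines and other compounds that can bind AHR. Of 17, 14 were tested, of which 3 were higher and 2 lower in ConvD than in GF livers, with a median log2 fold change of 0.01. Ccbl1, a kynurenine aminotransferase, was at 113, 112 and 107 CPM in ConvD livers, at 94.98, 84.7 and 96.7 CPM in GF+SCFA livers and at 92.7, 85.2 and 82.7 CPM in GF livers (0.35, adjusted p 0.00685 by edgeR). Its relative Ccbl2 moved the other way, by -0.37 (adjusted p 0.0159). Ddc, which decarboxylates aromatic amino acids, rose by 0.59 (adjusted p 0.0116), and Afmid, which makes kynurenine from its formyl precursor, was called lower at -0.24 (adjusted p 0.0399). Ccbl1 and Ddc kept their call in all 9 fits without 1 liver, while Ccbl2 lost it in 2 and Afmid in 8. Tdo2, the entry enzyme of the hepatic pathway, gave -0.11 (95% interval -0.40 to 0.19). Ido1, the entry enzyme outside the liver, did not pass the filter on low counts.

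The P450 enzymes need electrons from a reductase and a heme group. All 13 genes of this list were tested, of which 2 were higher and 1 lower in ConvD than in GF livers, with a median of 0.04. The one that was lower was Por, the reductase that feeds every microsomal P450 including those of the Cyp1 family. It was at 316, 354 and 316 CPM in ConvD livers, at 678, 714 and 733 CPM in GF+SCFA livers and at 577, 645 and 717 CPM in GF livers. The ConvD livers lay below all others, while GF+SCFA and GF livers overlapped, with a log2 fold change of ConvD over GF livers of -0.97 (95% interval -1.16 to -0.79, adjusted p 5.05e-05 by edgeR), kept in all 9 fits without 1 liver. Ppox, an enzyme of heme synthesis, was called higher at 0.41 (adjusted p 0.0198) and Cyb5b, a mitochondrial cytochrome, at 0.29 (adjusted p 0.0280). Ppox lost its call in 4 and Cyb5b in 5 of the 9 fits. Alas1, the rate-limiting enzyme of heme synthesis, varied widely and gave 0.13 (95% interval -0.62 to 0.88).

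Ahr is also expressed in immune cells, and macrophage and neutrophil markers were higher in ConvD livers. Of 13 Kupffer cell and macrophage markers, 9 were higher and 0 lower in ConvD than in GF livers. Their summed level was 550 to 798 CPM in ConvD livers, 421 to 521 CPM in GF+SCFA livers and 394 to 474 CPM in GF livers, and none of the 13 was at 0 in any liver. Without 1 liver, 4 to 12 of them were called, with 4 without ConvD replicate 2 or 3 and 5 without GF replicate 1 or 2. Against GF+SCFA livers, 3 of the 13 were higher and 0 lower in ConvD livers, with 2 to 10 higher without 1 liver. Of all tested genes, 9.44% were higher and 8.97% lower in that comparison. Of 9 neutrophil and monocyte markers, 6 were tested, of which 4 were higher in ConvD than in GF livers and 5 higher than in GF+SCFA livers. Their sum was 9.73 to 15.1 CPM in ConvD livers, 1.49 to 1.76 CPM in GF+SCFA livers and 1.63 to 2.86 CPM in GF livers. Mpo and Camp, which belong to this list, were at 0 in all GF+SCFA and GF livers, where a count of 0 still allows 3 counts in a library. Of 12 T, B and NK cell markers, 8 were tested and 0 passed between ConvD and GF livers by edgeR and by DESeq2. By edgeR 1 of them had an unadjusted p under 0.05, as did 3437 of all 12037 tested genes. As a group, ConvD livers had the lowest Ahr values and the highest macrophage and neutrophil sums. Within that group, ConvD replicate 1 had the lowest Ahr, at 31.0 CPM, and also the lowest macrophage sum, at 550 CPM. Its neutrophil and monocyte sum of 10.4 CPM lay between those of ConvD replicates 2 and 3. Of 12 sinusoidal endothelial markers, 1 was lower and 0 higher, and the call was lost in 7 of the 9 fits without 1 liver. The part of any of these cells in the Ahr values was not tested.

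The genes most like 4 of the 8 in their pattern over the 9 livers were listed by the Pearson correlation of log2 CPM among the tested genes with a mean of at least 5 CPM. For Ahr they were Btaf1 (r = 0.982), Snx8 (0.970) and Gpt2 (0.965), and for Tiparp Sertad2 (0.985), Ensa (0.925) and Ecm1 (0.889). For Cyp1a2 they were Fgd4 (0.929), Trappc8 (0.926) and Ap1g1 (0.919), and for Cyp1a1 Tcf20 (0.939), Dpp4 (0.890) and Dnajc22 (0.884). The 9 points include the difference between groups and share library depth and scaling, so these values are descriptions only.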

How the data were processed

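Libraries were prepared, per the labels' protocols, with a TruSeq Stranded mRNA kit from RNA purified on Qiagen columns. Bowtie2 and RSEM 1.2.23 were run against build mm9, per the submitters' processing notes. How strand was handled is not given in the sources used here, and antisense overlaps may share reads. The authors deposited expected counts without normalisation. Of the counts above 0, 46.7% were not whole (tolerance 0.005). TPM, per the file headers, is normalised by the authors for length and depth.

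Expected counts were rounded and tested with edgeR 4.0.16 in R 4.3.3: filterByExpr with a minimum count of 10 (12037 genes), TMM factors of 0.935 to 1.06, and a robust quasi-likelihood fit of 3 groups over all 9 livers with 6 residual degrees of freedom. The p-values were adjusted by Benjamini-Hochberg over all tested genes and called under 0.05. CPM values use TMM-scaled totals. Each standard error is the size of the log2 fold change over the root of its F statistic, and intervals use the t distribution. The code was tested on simulated data. DESeq2 1.42.0 and limma 3.58.1 were alternatives. Floors cover counting error only.

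The 8 genes and the 16 lists of other genes (216 entries, all matched) were chosen with earlier results of these data known. The text names all 8, up to 4 genes of a list with the smallest adjusted p between ConvD and GF livers, and others of a list on which a sentence turns. Some genes that meet this rule are not reported here. Libraries of a group differed by 11.4 to 54.4 in chi-square per degree of freedom, so none was a copy.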

Additional observations from a re-analysis of the deposited data

How the results depend on the processing

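Of the 339 values of single genes under alternatives, 313 kept their direction and their side of the threshold, 16 lost a call and 10 reversed. Most of the 339 were uncalled in the reported fit and had no call to lose. All 16 losses were of Ahr or Arnt, the only genes called. Among the values counted as kept, that of Cyp1b1 between GF+SCFA and GF by DESeq2 had no adjusted p. For Ahr, ConvD against GF ranged from -0.72 to -0.50 without 1 liver, and the call was lost only without ConvD replicate 2. For Arnt, ConvD against GF was called in 6 of 19 alternatives, and ConvD against GF+SCFA in all but the limma fits on log2(TPM + 1) and log2(TPM + 0.1) (adjusted p 0.0848 and 0.0822 by limma). The members called between ConvD and GF numbered 1 with upper-quartile factors, library totals only, a filter of 1 CPM in 3 samples, the 6 samples of the 2 groups, and both limma fits, and 0 to 2 without 1 liver. Between ConvD and GF+SCFA they numbered 1 in both limma fits and 2 in every fit without 1 liver. Genes called between ConvD and GF numbered 1019 and 972 by limma and 849 to 1466 without 1 liver. Between GF+SCFA and GF they numbered 9 with library totals, 24 with no filter, 82 by DESeq2, 1 in each limma fit and 0 to 173 without 1 liver, 173 being without GF replicate 3. Between ConvD and GF+SCFA they numbered 1383 to 2393 without 1 liver. The share of ConvD against GF calls that were higher was 46.2% as reported, 66.1% with upper-quartile factors, 73.1% with library totals and 75.5% and 74.9% by limma. The median of all genes moved by less than 0.1. The causes were not tested.

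All reversals were of uncalled values in fits without 1 liver. The log2 fold changes of ConvD over GF ran from -0.17 to 0.49 for Cyp1b1 and from -0.067 to 0.35 for Tiparp over these fits. Those of GF+SCFA over GF ran from -0.25 to 0.070 for Cyp1a1, -0.064 to 0.10 for Cyp1a2, -0.91 to 0.061 for Cyp1b1 and -0.28 to 0.14 for Tiparp.

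Samples with the same replicate number correlated at -0.0662 to 0.139 in their deviations from group means, and others at -0.128 to 0.111. The numbers thus showed no pairing over all genes, and shared handling of livers with the same number was not tested. With the replicate number as a block, 1 member, Ahr, was called between ConvD and GF (adjusted p 0.00108 by edgeR), Arnt lost its call (adjusted p 0.0528), and 1514, 5 and 2195 genes were called in the 3 comparisons in the order above. Depth limits Ahrr, Aldh3a1 and Cyp1b1, whose counts were 16 or fewer per library.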

Other observations

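Clock genes belong to the same protein family as AHR and ARNT or act on its members. Of 17 tested, 6 were lower and 1 higher in ConvD than in GF livers, beside 6.9% and 5.93% of all tested genes. Cry1, a repressor of the clock, averaged 3.24 CPM in ConvD livers and 9.01 CPM in GF livers (log2 fold change -1.48, adjusted p 0.000180 by edgeR with Benjamini-Hochberg adjustment, n = 3 each). Per2, another repressor, averaged 23.2 CPM in ConvD livers and 41.5 CPM in GF livers (-0.84, adjusted p 0.000353). Cry2 gave -0.34 (adjusted p 0.0140). Cry1 and Per2 kept their call in all 9 fits without 1 liver, and Cry2 lost it without ConvD replicate 2 (adjusted p 0.0628). Over these fits, 3 to 7 of the genes were called lower, the fewest without ConvD replicate 2. The labels give no hour of dissection, and its part in these values was not tested.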
